A study of Mus musculus with 4 samples.

Results

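The ERBB receptors and their EGF-like ligands were taken as 10 genes chosen by name: the receptor genes Egfr, Erbb2, Erbb3 and Erbb4 and the ligand genes Areg, Btc, Ereg, Hbegf, Nrg1 and Tgfa. Probe sets were assigned where the platform's annotation gave exactly one of these symbols. This found 20 probe sets of 9 genes, out of 45037 probe sets and 18193 singly named genes on the array. The annotation table pairs no probe set with Areg, the gene of amphiregulin, which was therefore not analysed here.

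RNA from mouse mammary tissue was hybridised to 4 Affymetrix arrays, 2 from mice labelled STAT5 KO and 2 from mice labelled STAT5 WT, with 2 mice per genotype according to the design text. STAT5 is a pair of closely related transcription factors that act downstream of prolactin and growth hormone, and the title of the series names STAT5A and luminal progenitors, the epithelial cells from which milk-secreting alveoli arise. Both genotypes were sampled at 6 days, an event or age that the design text does not name, and the labels give no treatment. The labels name no strain, age, allele, deleted exon or Cre driver, so the cells that lost STAT5 in the KO mice cannot be told from them. In whole tissue, fewer cells of a type and less RNA per cell cannot be told apart.

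ERBB receptors are receptor tyrosine kinases that pair with each other when a ligand binds and then signal through the RAS-MAPK and PI3K-AKT pathways. EGFR binds ligands such as TGF-alpha and amphiregulin, ERBB3 and ERBB4 bind neuregulins, and betacellulin, HB-EGF and epiregulin bind both EGFR and ERBB4. ERBB2 has no known soluble ligand and acts as a partner, while the kinase of ERBB3 has little activity of its own. The ligands are made as membrane-bound precursors and released by proteases. In the mouse mammary gland, amphiregulin signalling to stromal EGFR is known for its part in ductal growth, and ERBB4 for its part in alveolar differentiation and STAT5 activation.

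In the RefSeq gene order of the mouse, 3 of the ligand genes and the related Epgn lie side by side on chromosome 5, in the order Epgn, Ereg, Areg and Btc, with no other protein-coding gene between them. Promoter sequences were found for 6 of the 10 genes, Egfr, Erbb2, Erbb4, Areg, Btc and Tgfa. The 250 bases before the gene start are printed for Egfr and Erbb2, the receptors that had both a promoter entry and a signal bright enough to be tested. A window of 39 bases from the promoter of Csn2, the beta-casein gene, is set beside them because it holds the letters TTCNNNGAA, the core of sites that STAT5 binds. Capitals mark a match on either strand to TTCNNNGAA, to TATAAA (the TATA box), to CCAAT (the CCAAT box) or to GGGCGG (the GC box, CCGCCC on the other strand). TTCNNNGAA reads the same on both strands, and no matches overlap in these stretches. The sequences are from RefSeq on GRCm38.p6 and run 5′ to 3′ on the strand of the gene.
Egfr, chr11:16751953-16752202, plus strand: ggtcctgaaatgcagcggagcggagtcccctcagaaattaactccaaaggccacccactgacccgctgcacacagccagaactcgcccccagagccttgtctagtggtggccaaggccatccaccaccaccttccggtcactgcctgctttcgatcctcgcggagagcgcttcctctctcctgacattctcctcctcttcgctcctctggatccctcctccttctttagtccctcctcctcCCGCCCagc
Erbb2, chr11:98412234-98412483, plus strand: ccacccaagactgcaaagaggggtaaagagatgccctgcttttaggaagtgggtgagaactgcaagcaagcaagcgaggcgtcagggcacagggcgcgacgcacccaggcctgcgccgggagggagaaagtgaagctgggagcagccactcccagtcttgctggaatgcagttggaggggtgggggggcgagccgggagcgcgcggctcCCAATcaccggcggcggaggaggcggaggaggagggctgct
Csn2, chr5:87699495-87699533, minus strand: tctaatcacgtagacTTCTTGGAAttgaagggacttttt

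Of the 6 promoters, 0 held TTCNNNGAA in these 250 bases, against 7.04% of 32544 mouse promoter stretches of the same length. A GC box was found in 3 of the 6 (Egfr, Areg and Tgfa), against 33.0% of all stretches, a CCAAT box in 1 (Erbb2), against 33.8%, and a TATA box in 1 (Areg), against 12.3%. These are matches of letters, and their absence says only that the letters are not in this window.

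The ratio of 3′ to 5′ control signal on the KO arrays was 1.20 and 1.21 for actin and 0.77 and 0.80 for Gapdh. On the WT arrays it was 1.12 and 1.19 for actin and 0.79 and 0.77 for Gapdh. All 4 arrays had been scaled to a trimmed mean of 500. Median signals were lower on both KO arrays, at 121.2 and 124.3, than on the WT arrays, at 131.2 and 130.5. Pearson's r across tested probe sets, given as a description, was 0.938 to 0.952 between a KO and a WT array, 0.973 for the KO pair and 0.977 for the WT pair. Stat5a gave signals of 1836 and 861 on the KO arrays, against 2307 and 2061 on the WT arrays, and Stat5b 1069 and 712 on the KO arrays, against 1522 and 1506 on the WT arrays. Both genes were lower on both KO arrays and neither passed the test (limma adjusted p = 0.246 and 0.102). Without KO replicate 1 the log2 difference was -1.33 for Stat5a and -1.07 for Stat5b. Without KO replicate 2 it was -0.25 for Stat5a and -0.50 for Stat5b, so both differences were smaller on KO replicate 1. Centred on epithelial markers, both stood at -0.42, where the median of all tested genes was 0.35. These values are from the brightest probe set of each gene. Stat5a 1450259_a_at gave 1003 and 485 on the KO arrays, against 1444 and 1889 on the WT arrays (log2 difference -1.22, limma adjusted p = 0.106). Stat5b 1422102_a_at gave 353 and 199 on the KO arrays, against 483 and 597 on the WT arrays (log2 difference -0.97, limma adjusted p = 0.121). The epithelial keratin genes Krt8 and Krt18 were bright on all arrays. Krt8 had 4378 and 7431 on the KO arrays and 5248 and 6253 on the WT arrays. Krt18 had 6354 and 9118 on the KO arrays and 5823 and 6523 on the WT arrays. Most of the 22 general epithelial markers, to which they belong, were lower in KO. Their median log2 difference was -0.43, with 13 lower and 3 higher without overlap, against 27.5% and 26.2% of all tested genes.

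Of the receptors and ligands, 5 genes were bright enough to be tested (Egfr, Erbb2, Erbb3, Btc and Tgfa) and 0 differed between KO and WT at a Benjamini-Hochberg adjusted p of 0.05 by limma. Over all 11360 tested genes 2.57% passed, 1.21% higher and 1.36% lower in KO (138 and 154 genes, against 192 and 119 with the arrays centred on their medians and 197 and 60 centred on epithelial markers). Their log2 differences, KO minus WT on the log2(signal + 16) scale, ran from 0.02 for Erbb3 to 0.31 for Erbb2, with a median of 0.10, beside a median of -0.01 over all tested genes. KO and WT arrays overlapped for all 5, whereas they did not overlap for 53.7% of tested genes (26.2% higher and 27.5% lower in KO). No member gene reached an unadjusted p of 0.05 (the lowest was 0.219), a level that 21.3% of tested genes reached.

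The intervals of the differences depended on the scaling. With the deposited scaling, the unadjusted 95% interval of the log2 difference lay inside a 2-fold change in either direction for all 9 tested probe sets of these genes. The same was true of 82.9% of all 22519 tested probe sets. With the arrays centred on epithelial markers, the interval reached past 2-fold for all 5 genes, with upper ends of 1.19 to 1.46 on the log2 scale, and 22.2% of tested genes stayed inside, against 83.5% with the deposited scaling. The interval of 1 of the 5 genes also reached past 2-fold without KO replicate 1 and without WT replicate 2, as did 1 of 3 with the mean of all probe sets. The other 4 genes (Erbb4, Ereg, Hbegf and Nrg1) and 11 of the 20 probe sets fell under the level needed for a test, a mean log2 value of 7.15 or a signal of about 126. All but 1 of these 11 had signals from 0.431 to 111 throughout, and Egfr probe set 1432647_at reached 157 on WT replicate 1.

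**Figure D1:**
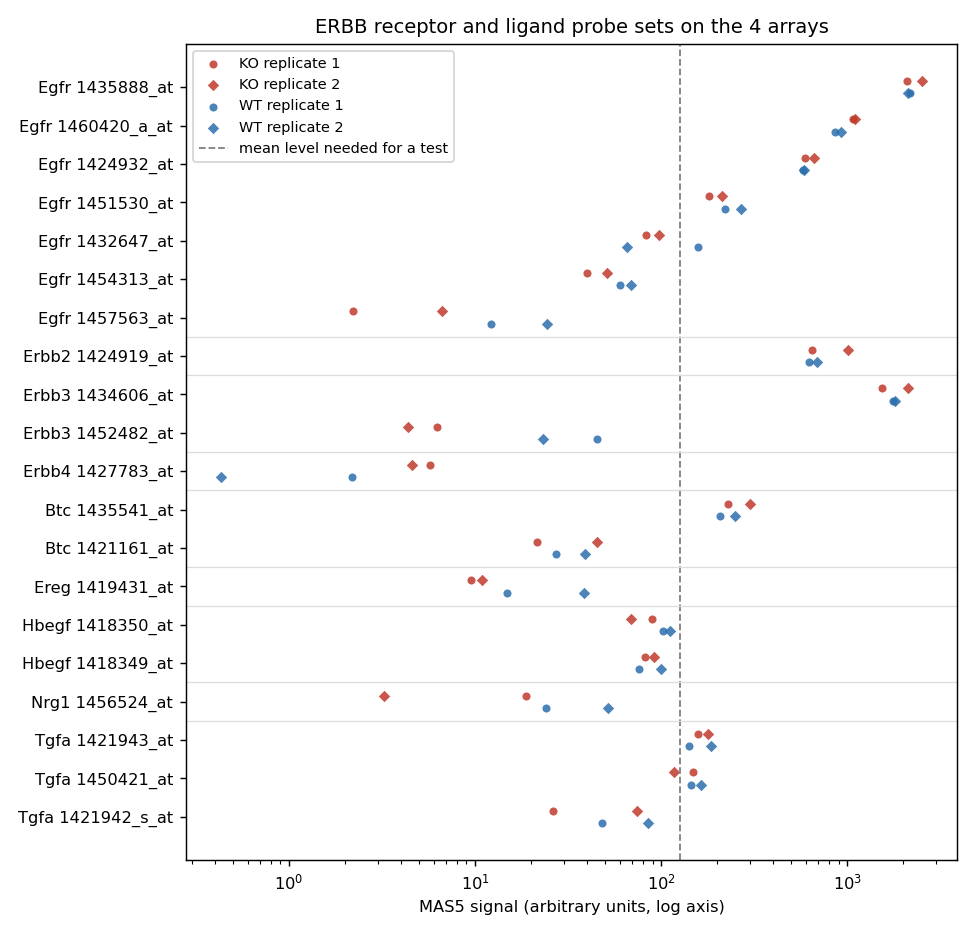
MAS5 signal (log axis, arbitrary units) of each of the 20 probe sets on the 2 KO arrays (red, upper position in each row) and the 2 WT arrays (blue, lower position). The dashed line is the mean level needed for a test, a signal of about 126, and 9 probe sets of 5 genes have a mean level at or above it.

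Egfr, which encodes the epidermal growth factor receptor, was measured by 7 probe sets, of which 4 were tested. The brightest, 1435888_at, had signals of 2088 and 2533 on the KO arrays, against 2174 and 2124 on the WT arrays. One KO array lay below both WT arrays and the other above both. The log2 difference was 0.10 with an SE of 0.14 and an interval from -0.25 to 0.44 (limma adjusted p = 0.765), which corresponds to a fold change between 0.843 and 1.357.

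The other tested Egfr probe sets did not all point the same way. Probe set 1460420_a_at had 1076 and 1103 on the KO arrays, against 860 and 931 on the WT arrays, so both KO arrays were above both WT arrays. Its log2 difference of 0.28 (SE 0.14, adjusted p = 0.328) had the lowest adjusted p of the 9 tested probe sets of the group. Probe set 1424932_at had 592 and 665 on the KO arrays and 576 and 586 on the WT arrays, also without overlap but with a log2 difference of only 0.11 (adjusted p = 0.749). Probe set 1451530_at lay the other way, at 180 and 212 on the KO arrays and 222 and 269 on the WT arrays (log2 difference -0.30, adjusted p = 0.473).

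Thus 3 of the 9 tested probe sets of these genes did not overlap between genotypes, 2 higher and 1 lower in KO, and all 3 belong to Egfr. Among all tested probe sets 51.9% did not overlap, 23.9% higher and 28% lower in KO. None of the 9 reached an unadjusted p of 0.05, which 19.6% of tested probe sets did, and none passed after adjustment, beside 2% of them. The other 3 Egfr probe sets were too dim to be tested, with log2 differences of -0.16, -0.39 and -0.73.

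Erbb2, the gene of the receptor that acts as a partner for the other members, had 1 probe set. Its signals were 647 and 1012 on the KO arrays and 621 and 684 on the WT arrays. KO replicate 1 fell between the WT arrays, and KO replicate 2 stood above both. The log2 difference was 0.31 with an SE of 0.23 and an interval from -0.23 to 0.84 (limma adjusted p = 0.513), and it was 0.62 without KO replicate 1 (adjusted p = 0.148) and -0.01 without KO replicate 2. The KO arrays differed from each other by 0.63 on the log2 scale and the WT arrays by 0.14.

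Erbb3, whose product binds neuregulins and needs a partner with an active kinase, gave 1533 and 2109 on the KO arrays and 1752 and 1804 on the WT arrays with its bright probe set 1434606_at. The KO arrays lay on either side of the WT arrays, which were close together. Means were 1821 ± 408 in KO and 1778 ± 36.9 in WT (SD, n = 2 each), a log2 difference of 0.02 with an interval from -0.40 to 0.44 (limma adjusted p = 0.972). The second probe set, 1452482_at, was dim, with 6.22 and 4.38 on the KO arrays and 45.2 and 23.2 on the WT arrays. It was lower on both KO arrays, and when all probe sets were tested without a filter it had an unadjusted p of 0.00759 and an adjusted p of 0.179. As for the other dim probe sets, its difference on the log2(signal + 16) scale (-1.20) depends on the pseudocount.

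Erbb4, which encodes the neuregulin receptor linked to alveolar differentiation, had 1 probe set with signals of 5.76 and 4.56 on the KO arrays and 2.18 and 0.431 on the WT arrays. All 4 values were far under the level needed for a test. The KO arrays were above the WT arrays, but the log2 difference followed the pseudocount, at 0.29 with 16, 1.52 with 1 and 0.08 with 64. No fold change is given for a signal this dim.

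**Figure D2:**
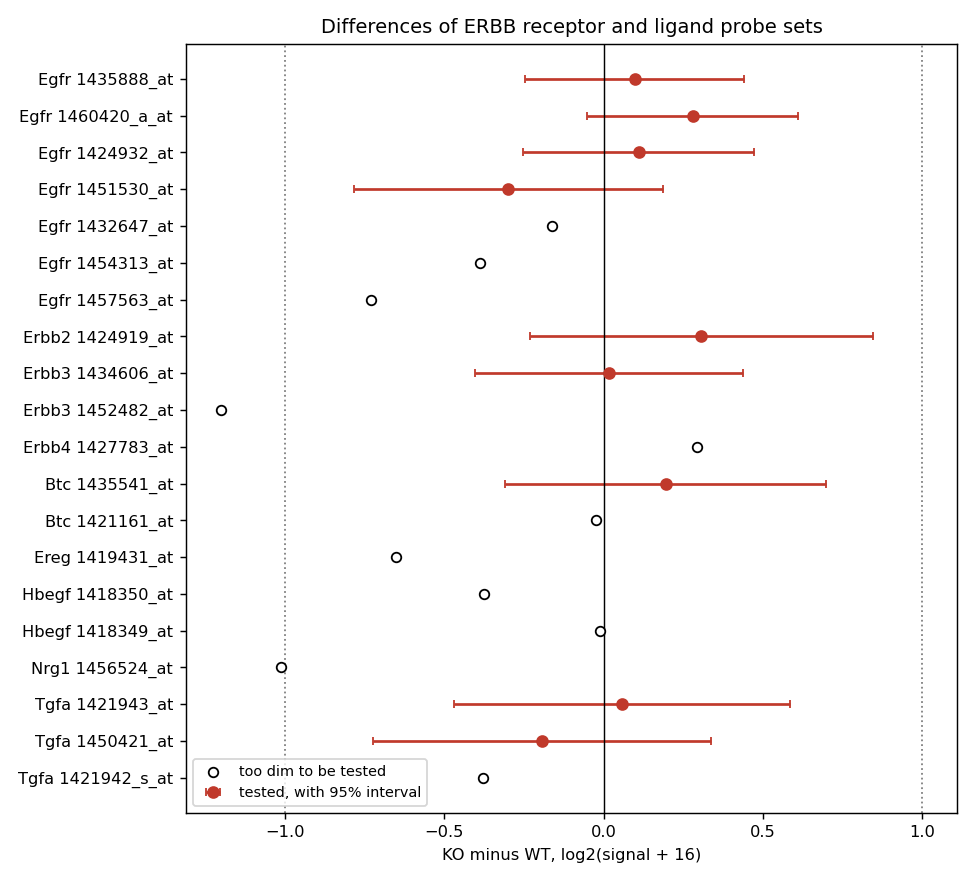
Log2 difference, KO minus WT on the log2(signal + 16) scale, for the 20 probe sets, with 95% intervals from limma for the 9 tested ones (filled) and no interval for the 11 dim ones (open). The dotted lines mark a 2-fold change, and all 9 intervals lie between them and include 0.

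Among the ligands, Btc and Tgfa were tested. Btc, the gene of betacellulin, had signals of 230 and 299 on the KO arrays and 207 and 249 on the WT arrays with probe set 1435541_at. The arrays of the 2 genotypes alternated in rank, and the log2 difference of 0.19 (SE 0.21, interval -0.31 to 0.70, limma adjusted p = 0.667) was smaller than the gap of 0.36 between the KO arrays. Its dimmer probe set gave 21.6 and 45.1 on the KO arrays and 27.4 and 38.8 on the WT arrays, a log2 difference of -0.03.

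Tgfa, which encodes transforming growth factor alpha, was read by 3 probe sets, 2 of them just bright enough to be tested. Probe set 1421943_at gave 159 and 179 on the KO arrays, against 141 and 184 on the WT arrays, so both KO values lay between the WT values (log2 difference 0.06, interval -0.47 to 0.59, limma adjusted p = 0.918). The second tested probe set, 1450421_at, gave 149 and 118 on the KO arrays, against 145 and 163 on the WT arrays (log2 difference -0.19, adjusted p = 0.686). The third, 1421942_s_at, was too dim to be tested and gave 26.3 and 74.4 on the KO arrays and 48.0 and 84.9 on the WT arrays. In all 3 the genotypes overlapped.

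Hbegf, Ereg and Nrg1 were too dim to be tested. Hbegf, the gene of heparin-binding EGF-like growth factor, had 89.4 and 68.9 on the KO arrays and 102 and 111 on the WT arrays with probe set 1418350_at, and 82.1 and 92.0 on the KO arrays and 76.4 and 100 on the WT arrays with 1418349_at. The first probe set was lower on both KO arrays (log2 difference -0.38) and the second overlapped (-0.01), so the 2 probe sets of the gene disagree.

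Ereg, which encodes epiregulin, stood at 9.47 and 10.8 on the KO arrays and 14.9 and 38.7 on the WT arrays. Both KO values were below both WT values. The log2 difference was -0.65 with a pseudocount of 16, -1.17 with 1 and -0.28 with 64, and it was -1.06 without WT replicate 1 and -0.24 without WT replicate 2. Nrg1, the gene of neuregulin 1, had 18.7 and 3.26 on the KO arrays and 23.9 and 52.0 on the WT arrays with 1 probe set. The KO values were again below the WT values, with a log2 difference of -1.01 with a pseudocount of 16, -1.99 with 1 and -0.44 with 64. Leaving out 1 array moved it between -0.59 (without KO replicate 2) and -1.44 (without KO replicate 1). Without a filter the adjusted p was 0.452 for Ereg and 0.352 for Nrg1.

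The 11 dim probe sets leaned to lower values in KO. Log2 differences were below 0 for 10 of the 11, against 54.6% of the 22518 probe sets under the level for a test, and the median was -0.38, against -0.04. KO and WT did not overlap for 7 of the 11, 6 lower and 1 higher in KO, where 39.3% of dim probe sets did not overlap, 22.8% of them lower and 16.5% higher. Several of these probe sets share a gene, so they are not independent. With no filter, 0 of all 20 member probe sets passed the adjusted threshold, which 0.0844% of 45037 probe sets passed, and 2 had an unadjusted p under 0.05 (Erbb3 1452482_at and Egfr 1457563_at), against 14.4% of all probe sets. Detection calls were not used here, so it is not known whether these signals lie above background.

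The KO arrays differed from each other in the brighter receptors. KO replicate 2 was above KO replicate 1 for 8 of the 9 tested probe sets, the exception being Tgfa 1450421_at, with a median gap of 0.22 on the log2 scale. For the 3 tested receptor genes the gaps were 0.28 for Egfr, 0.63 for Erbb2 and 0.46 for Erbb3. Over all tested probe sets the median gap was 0.03, and 12387 of 22519 were higher on KO replicate 2. These gaps carry a sign, so their median over all probe sets does not show how large a gap usually is.

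General epithelial markers moved the same way between the KO arrays. Of 22 markers on the array, 21 were higher on KO replicate 2 than on KO replicate 1, with a median gap of 0.55. Their mean log2 value was 10.14 and 10.74 on KO replicates 1 and 2 and 10.75 and 10.86 on WT replicates 1 and 2, and their summed signal was 38210 and 59908 on the KO arrays, against 55071 and 57823 on the WT arrays. None of them was at 0. Their part in the receptor values was not tested. Centring the arrays on these markers moved the median of all tested genes to 0.35 and the 5 member genes to 0.38 (Erbb3), 0.42 (Tgfa), 0.46 (Egfr), 0.56 (Btc) and 0.67 (Erbb2), and none passed (adjusted p of 0.576 or more).

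**Figure D3:**
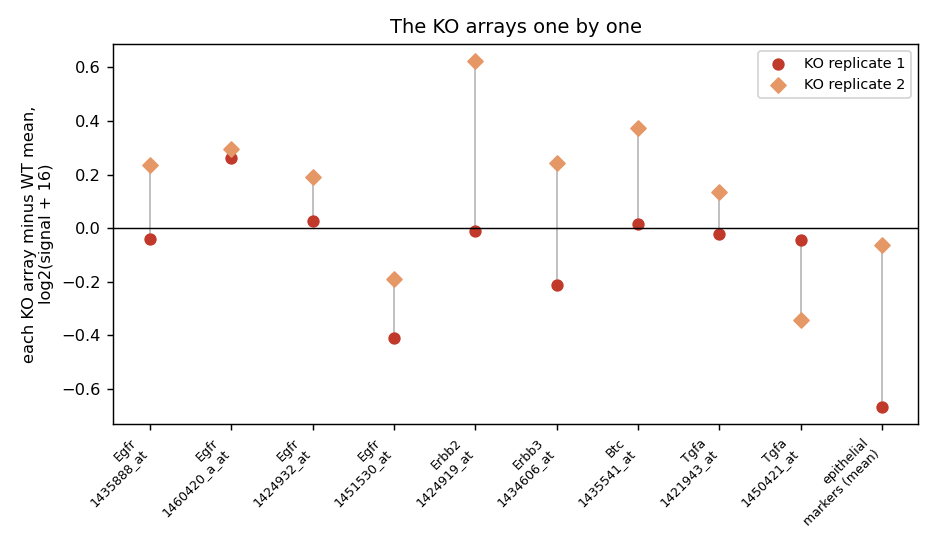
Log2(signal + 16) on each KO array minus the mean of the WT arrays, for the 9 tested probe sets of the receptors and ligands and for the mean of 22 general epithelial markers. KO replicate 2 (orange diamonds) lies above KO replicate 1 (red circles) for 8 of the 9 probe sets and for the marker mean, and the KO arrays lie on opposite sides of 0 for Egfr 1435888_at, Erbb2, Erbb3 and Tgfa 1421943_at.

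Markers of other cells are given here as the setting of these values. Counts of higher and lower markers are those past the limma adjusted threshold of 0.05, not those without overlap. Over all tested genes, 1.21% passed higher and 1.36% lower in KO. Luminal progenitor and alveolar markers had 4 lower and 1 higher in KO of 9 tested (median log2 difference -0.98, the largest that of Csn2 at -6.35), hormone-sensing luminal markers 1 higher and 1 lower of 7 (median -0.26, the largest Tnfsf11 at -2.59, which did not pass), and basal and myoepithelial markers 1 lower of 11 (median -0.26, the largest Krt5 at -0.91, which did not pass). Skeletal muscle markers had 5 higher of 10 (median 2.68, the largest Tnni2 at 3.75), with a summed signal of 12627 and 6985 on the KO arrays, against 3416 and 1603 on the WT arrays. General epithelial markers had 1 higher and 1 lower of 22 (median -0.43, the largest Ehf at -1.78). None passed among 8 adipocyte markers (median 0.18, the largest Pck1 at 1.88), 7 fibroblast and matrix markers (0.07, Pdgfra at 0.30), 7 endothelial markers (0.03, Vwf at 0.28), 7 macrophage markers (0.09, Mrc1 at 0.57), 5 Schwann cell and nerve markers (0.18, Sox10 at -1.22) or the 1 lymphocyte marker tested (Cd3e at -1.21). The part of these cells in the receptor and ligand values was not tested.

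Other genes of the pathway gave the same count of calls. Of 75 genes in 6 lists, 69 were on the array and 63 were tested by their brightest probe set. By limma 0 passed in either direction, beside 2.57% of all tested genes. Dimmer probe sets of Ccnd1 (1417419_at, adjusted p = 0.0352) and Nrg4 (1457123_at, adjusted p = 0.0437) did pass, as did 2% of all tested probe sets. The median log2 difference of the 63 genes was -0.06. The sign of this median followed the scaling and the arrays, at 0.02 centred on array medians, 0.31 centred on epithelial markers and 0.06 without WT replicate 2. An unadjusted p under 0.05 was reached by 13 of the 63, beside 21.3% of all tested genes. KO and WT did not overlap for 31 of the 63, against 53.7% of all tested genes.

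Among the other EGF-family ligands, Egf, Epgn, Nrg2 and Nrg3 were too dim to be tested. Nrg4, the gene of neuregulin 4, a ligand of ERBB4, had 2630 and 1950 on the KO arrays and 1821 and 1053 on the WT arrays with its brighter probe set, 1421681_at. Both KO arrays were above both WT arrays, and the log2 difference of 0.70 (SE 0.27) did not pass (limma adjusted p = 0.224). It was 1.09 without WT replicate 1 and 0.31 without WT replicate 2. Its other probe set, 1457123_at, gave 2357 and 1328 on the KO arrays, against 629 and 550 on the WT arrays, and was higher in KO by 1.56 on the log2 scale (SE 0.27, adjusted p = 0.0437). The log2 difference was 1.15 without KO replicate 1, 1.97 without KO replicate 2, 1.66 without WT replicate 1 and 1.47 without WT replicate 2. Each of these settings leaves 1 array in a group, so the spread of the probe set comes from the other group alone. The gap was 0.82 between the KO arrays and 0.19 between the WT arrays. With all 4 arrays and no filter the call was lost (limma adjusted p = 0.124). The probe sets of Nrg4 therefore point the same way and differ in whether they passed. This second probe set was singled out after its values were seen, and 0.955% of tested probe sets were called higher in KO.

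Genes of ligand shedding had a median of -0.05 over 9 tested. Adam17, the main protease that releases EGFR ligands, gave 1236 and 1362 on the KO arrays and 1408 and 1613 on the WT arrays (log2 difference -0.21, limma adjusted p = 0.471). The largest difference in size was that of Rhbdf2, whose product escorts ADAM17 to the cell surface. It had 85.2 and 401 on the KO arrays and 575 and 429 on the WT arrays. The log2 difference was -1.32 (limma adjusted p = 0.279), and it was -2.34 without KO replicate 2 and -0.30 without KO replicate 1. Adam15, a related metalloprotease, gave a log2 difference of 0.39 for its brightest probe set (adjusted p = 0.231), and its 3 other probe sets gave -0.15, 0.29 and -0.09.

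Adaptors and effectors of the receptors lay close to 0, with a median of 0.05 and a range from -0.38 to 0.41 over 19 tested genes. Sos2, a guanine nucleotide exchange factor for RAS, had 964 and 849 on the KO arrays and 644 and 716 on the WT arrays (log2 difference 0.41, limma adjusted p = 0.215). Gab1, a docking protein for PI3K, had 1477 and 1736 on the KO arrays and 2075 and 2110 on the WT arrays. Its log2 difference was -0.38 (adjusted p = 0.202), and its 2 other probe sets gave -0.35 and -0.41, so its 3 probe sets were alike.

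Feedback inhibitors had a median of -0.01 over 19 tested, of which 0 passed. Without overlap, 6 were higher and 3 lower in KO, against 26.2% higher and 27.5% lower of all tested genes. The 3 lower ones were Socs5 (-0.31), Rnf41 (-0.23) and Cblc (-0.18). Errfi1, whose product binds and inhibits the kinase of EGFR, had 2673 and 5046 on the KO arrays and 1908 and 2061 on the WT arrays. Both KO arrays were above both WT arrays, with a log2 difference of 0.88 and an SE of 0.28 (limma adjusted p = 0.150), and 0.98 for its other probe set. For the first probe set it was 1.34 without KO replicate 1 and 0.43 without KO replicate 2. Cblb, a ubiquitin ligase that promotes receptor breakdown, had 1011 and 1129 on the KO arrays and 620 and 801 on the WT arrays (log2 difference 0.59, adjusted p = 0.132), and its other probe sets gave 0.60 and 0.71. Lrig1, another inhibitor of ERBB receptors, gave 1173 and 1607 on the KO arrays and 997 and 1058 on the WT arrays (log2 difference 0.41, adjusted p = 0.271).

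Genes that respond to MAPK signalling had the lowest median of the pathway lists with more than 3 tested genes, at -0.52 over 12 tested genes. Against the WT mean this median was -0.67 on KO replicate 1 and -0.33 on KO replicate 2. For general epithelial markers it was -0.64 and -0.21, and their part in these values was not tested. Of the 12 genes, 5 did not overlap between genotypes, 4 lower and 1 higher in KO, against 53.7% of all tested genes. Phlda1, a target of ERK signalling, had 2730 and 4119 on the KO arrays and 6684 and 6932 on the WT arrays. Its log2 difference of -1.02 (SE 0.20) fell just outside the threshold (limma adjusted p = 0.0552). It was -1.31 without KO replicate 2 and -0.72 without KO replicate 1. Centred on epithelial markers it was -0.65 (adjusted p = 0.606). Egr3, an immediate early transcription factor, had 185 and 524 on the KO arrays and 411 and 1258 on the WT arrays. The genotypes overlapped, and the log2 difference was -1.16 for this probe set (adjusted p = 0.343) and -0.04 for the other. With an array left out, the first ranged from -1.95 (without WT replicate 1) to -0.37 (without WT replicate 2). Ccnd1, which encodes cyclin D1, had 1885 and 2834 on the KO arrays and 3961 and 5337 on the WT arrays with its brightest probe set (log2 difference -0.99, adjusted p = 0.0792). A further probe set of the gene, 1417420_at, was not among those that passed. Probe set 1417419_at of Ccnd1 had 588 and 821 on the KO arrays and 1635 and 2191 on the WT arrays. Its log2 difference of -1.43 passed (limma adjusted p = 0.0352), where 1.04% of tested probe sets were called lower. It still passed at -1.19 when KO replicate 1 was left out (adjusted p = 0.0311) and at -1.66 when KO replicate 2 was (adjusted p = 0.00735). That call was lost at a similar log2 difference without WT replicate 1 (-1.63, adjusted p = 0.0564), without WT replicate 2 (-1.22, adjusted p = 0.164) and with no filter (adjusted p = 0.110). Fos, an immediate early gene, had 727 and 1229 on the KO arrays and 878 and 572 on the WT arrays (log2 difference 0.41, adjusted p = 0.506). Adam17, Lrig1, Ccnd1 and Fos were chosen after their values were seen.

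**Figure D4:**
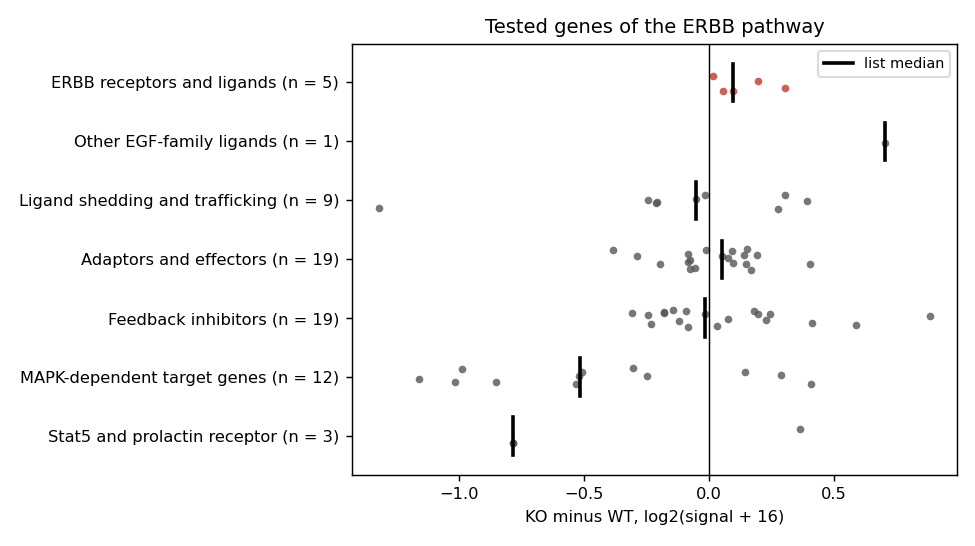
Log2 differences, KO minus WT, of the tested genes among the ERBB receptors and ligands (red, n = 5) and of 6 lists of pathway genes (grey), with list medians as vertical bars. The receptors and ligands lie between 0.02 and 0.31, and the list medians run from -0.78 for the list with Stat5a, Stat5b and Jak2 to 0.70 for Nrg4 alone.

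The direction of the 5 member differences depended on which arrays and probe sets entered. Without KO replicate 2, Egfr, Erbb2, Erbb3 and Tgfa turned to -0.041, -0.011, -0.21 and -0.022, and Btc stood at 0.017. Taking the mean of all probe sets of a gene gave -0.16 for Egfr and -0.59 for Erbb3, in which dim probe sets carry the same weight as bright ones. Erbb3 also turned, to -0.0025 after quantile normalization and -0.0045 without WT replicate 1, and Tgfa stood at -0.12 without WT replicate 1. In none of the 13 other settings did a member gene pass, and the lowest adjusted p among them was 0.141, for Erbb3 with the mean of all probe sets.

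**Figure D5:**
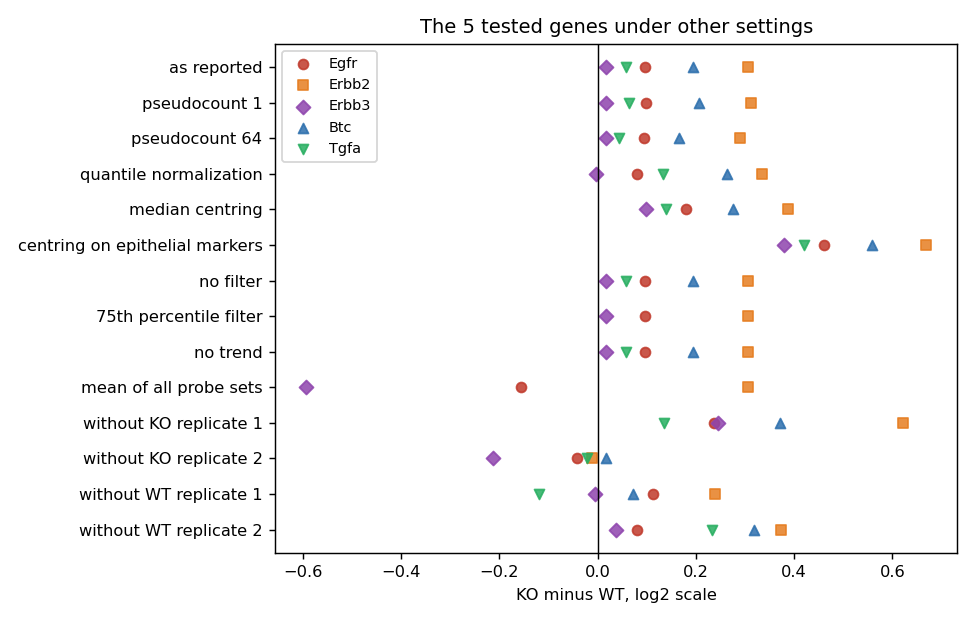
Log2 differences, KO minus WT, of the 5 tested genes as reported and under each of 13 other settings, 1 row per setting. The genes lie above 0 as reported, move up together with centring on epithelial markers, and 4 of the 5 lie below 0 without KO replicate 2.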

How the data were processed

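The authors deposited an intensity for each probe set, not log-transformed, computed with MAS5 per the submitters' processing notes; its version and settings are not given in the sources used here. The labels' protocols give TRIzol for RNA extraction and biotin as label. The 64 control probe sets were left out. Of the other 45037, 34945 had 1 gene symbol in the platform annotation, 932 had several and were given no name, and 9160 are unnamed here.

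Signals were transformed as log2(signal + 16), a scale that understates changes of dim genes. The 22519 probe sets at or above the median mean level were tested. The difference KO minus WT was fitted with lmFit and eBayes (trend on) from limma 3.58.1 under R 4.3.3. Adjusted p-values (Benjamini-Hochberg) cover every tested probe set, and 0.05 was the threshold. A gene was represented by its brightest probe set. The fit, with 2 residual degrees of freedom per probe set, was tested on simulated data. With 2 arrays in each group, 0.333 is the smallest two-sided p of an exact permutation test, so none was used. The p-values rest on the spread within each genotype, drawn toward a variance trend fitted over all 22519 tested probe sets. With 4 mice, so few arrays limit the precision. Replicates were numbered in order of deposit, so numbers pair no animals.

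All 10 genes were described with every probe set. From each pathway list the rule named up to 4 genes past the threshold, or up to 2 with the largest difference where none passed, and from each marker list the gene with the largest difference. For genes of the receptor and ligand group past the threshold it would have named those of most similar pattern, and there were none. The genes and lists were chosen with earlier results of these data known. Alternatives were pseudocounts of 1 and 64, quantile normalization, centring on the array median or on epithelial markers, no filter, a filter at the 75th percentile, no variance trend, the mean of all probe sets of a gene, and leaving out each array. Promoter sequences came from RefSeq tables on GRCm38.p6; the array files name no genome build, so the coordinates given are only those of the RefSeq promoter stretches.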

Additional observations from a re-analysis of the deposited data

How the results depend on the processing

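The count of 0 member genes past the threshold held in all 13 alternatives, with 3 to 9 genes tested; the mean of all probe sets and leaving out KO replicate 1 each gave 1 gene with an unadjusted p under 0.05, and the others none. Of 47 alternative values for the 5 tested genes that could differ from the reported one, 38 kept their sign and 9 turned, none past the threshold; another 14 were identical, since those settings change only the test or average a single probe set. Turned values were -0.16 for Egfr and -0.59 for Erbb3 with the mean of all probe sets, -0.0025 for Erbb3 after quantile normalization, and, with an array left out, -0.041 (Egfr), -0.011 (Erbb2), -0.21 and -0.0045 (Erbb3) and -0.02 and -0.12 (Tgfa). With an array left out the log2 difference ranged from -0.041 to 0.24 for Egfr, -0.011 to 0.62 for Erbb2, -0.21 to 0.24 for Erbb3, 0.02 to 0.37 for Btc and -0.12 to 0.23 for Tgfa. Pathway genes past the threshold, counted by gene, numbered 0 in all settings that kept the 4 arrays. As reported, 2.57% of all tested genes passed. With an array left out the pathway count was not always 0, and the count over all genes moved as well. Those settings leave a single array in 1 group.

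Over the whole array, 450 probe sets and 292 genes passed. These counts were 38 and 27 with no filter, 182 and 127 with the 75th percentile filter (fewer probe sets tested) and 205 and 137 without a variance trend, and ranged from 67 to 1021 probe sets and 44 to 599 genes with an array left out; the cause was not tested. Of the called genes 138 were higher and 154 lower, against 192 and 119 with median centring and 197 and 60 centred on epithelial markers. Btc and Tgfa went untested when all probe sets were averaged or the filter was set at the 75th percentile. With an array left out, the group left with 1 array is assumed to vary like the other. No paired analysis was possible because the labels give no replicate numbers that the genotypes share. Dim signals, without detection calls, limit Erbb4, Ereg, Hbegf and Nrg1.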
